A study of Mus musculus with 8 samples.

Results

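Macrophages read sugars on microbes and on dying or dividing cells with C-type lectin receptors, membrane proteins that carry a carbohydrate recognition domain of the C-type fold. Some of them, such as the mannose receptor, mainly take up what they bind, and others, such as Dectin-1 and Mincle, signal through the kinase Syk and the adaptor Card9 to NF-κB. Interleukin 4 (IL-4), the cytokine of alternative (M2) activation, is known for raising the mannose receptor and the MGL lectins in mouse macrophages, which are used as markers of that state.

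The receptors described here are 9 genes listed by symbol: Mrc1, Mgl2, Clec10a, Clec7a, Clec4a2, Clec4d, Clec4e, Clec4n and Cd209d. Of these 9, 8 had a row in both tables of the series, out of 13384 genes that had one in both. Cd209d, a mouse relative of the human lectin DC-SIGN, is not analysed here because neither table carried its symbol. The RNA came from macrophages cultured out of the marrow of 12-week-old female mice labelled NIK KO or WT, where NIK is the NF-κB-inducing kinase that starts noncanonical NF-κB signalling. All cultures spent 7 days in medium with 30% supernatant of L929 fibroblasts, which supplies M-CSF, before replating in 5%. The 4 groups were NIK KO with IL-4, WT with IL-4, NIK KO with PBS and WT with PBS, each of 2 mice, and the 4 mice stand behind both treatments. IL-4 was given at 20 ng/mL for 6 hours, and PBS for the same time. The sources used here do not state how the NIK gene was altered, in which cells or on which strain.

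The authors deposited 1 table per treatment, each comparing the genotypes over 4 libraries, with 1 value per gene. No value per library is therefore given below, and sequencing depth is unknown. Means per group were recovered from the deposited base mean, the average of counts divided by size factors, and the deposited fold change of NIK KO over WT. The gene of NIK, Map3k14, stood higher in the libraries labelled NIK KO, at 0.99 ± 0.22 on the log2 scale with IL-4 (832 against 418 mean normalized counts, DESeq2 adjusted p = 0.00782) and at 1.09 ± 0.28 with PBS (902 against 425, DESeq2 adjusted p = 0.176) in the authors' deposited tables. That is against the label, and NIK KO below means the libraries so labelled. If the tables ran in the other direction, every sign between genotypes below would turn and the NIK KO and WT means would change places. All 12 macrophage markers listed had rows in both tables, summing to 509862 (NIK KO) and 533012 (WT) mean normalized counts with IL-4 and to 671929 (NIK KO) and 659406 (WT) with PBS. Lyz2 made up most of each sum, with 318214 (NIK KO) and 370074 (WT) with IL-4, while 9 of the 12 markers lay above 0 in NIK KO over WT with IL-4 (median 0.09) and 7 of 12 with PBS (median 0.03).

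The receptor genes sit in 4 places of the mouse genome. Mrc1 is on chromosome 2, and Mgl2 and Clec10a are neighbours on chromosome 11. Clec4a2, Clec4n, Clec4d and Clec4e belong to the Dectin-2 cluster on chromosome 6, and Clec7a lies apart from them on the same chromosome, in the Dectin-1 cluster. Promoter sequences, taken here as the 250 bases before the start of a gene (the first of 2 listed starts for Clec7a), were found for 6 of the 8 genes in a RefSeq table of build GRCm38.p6, which is not the GRCm39 build named by the submitters. They were searched on both strands for TTCNNNNGAA, the spacing preferred by STAT6, the transcription factor that IL-4 activates, for TTCNNNGAA, the spacing of other STAT proteins, and for GGGNNNNNCC, a loose form of the NF-κB site. The 3 promoters below were picked from the 6 as examples. Their genes stood far higher with IL-4 (Clec7a, Mgl2) or at the same level (Clec4a2). The promoter of Mrc1, also far higher, is not printed. Capitals mark a match to either STAT spacing, which Clec7a and Clec4a2 alone of the 6 had.
Clec7a (GRCm38.p6 chr6:129472780-129473029, minus strand): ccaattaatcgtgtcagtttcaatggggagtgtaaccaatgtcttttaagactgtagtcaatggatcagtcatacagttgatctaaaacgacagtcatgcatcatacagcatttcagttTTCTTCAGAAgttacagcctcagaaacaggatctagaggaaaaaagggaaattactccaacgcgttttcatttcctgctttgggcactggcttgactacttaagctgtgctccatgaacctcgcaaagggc
Mgl2 (GRCm38.p6 chr11:70130107-70130356, plus strand): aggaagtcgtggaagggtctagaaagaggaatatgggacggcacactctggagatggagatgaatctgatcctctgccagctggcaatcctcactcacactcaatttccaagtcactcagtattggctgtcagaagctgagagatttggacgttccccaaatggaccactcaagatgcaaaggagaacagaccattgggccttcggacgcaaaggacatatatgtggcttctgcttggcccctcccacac
Clec4a2 (GRCm38.p6 chr6:123122440-123122689, plus strand): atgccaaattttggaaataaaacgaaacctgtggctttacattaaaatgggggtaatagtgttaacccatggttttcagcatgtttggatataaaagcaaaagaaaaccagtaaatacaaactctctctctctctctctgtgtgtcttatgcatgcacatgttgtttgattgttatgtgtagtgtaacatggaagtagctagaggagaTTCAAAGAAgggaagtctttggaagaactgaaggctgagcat

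In the Clec7a promoter the letters TTCTTCAGAA match the STAT6 spacing from 131 to 122 bases before the start. TTCNNNNGAA was matched in 5.86% of 27025 promoters of the same length. The Clec4a2 promoter holds TTCAAAGAA, with the shorter spacing, from 42 to 34 bases before the start, and 7.18% of promoters hold that motif. The windows of Mrc1, Mgl2, Clec4d and Clec4e matched neither spacing. The loose NF-κB motif matched once in Mrc1 and at 2 places in Mgl2, and in 45.4% of all promoters. These matches describe letters and are not binding sites.

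The mannose receptor, both MGL lectins and Dectin-1 stood far higher with IL-4 than with PBS, and they did so in both genotypes. Of the listed receptors in the Dectin-2 cluster, Clec4n, Clec4d and Clec4e stood lower with IL-4 and Clec4a2 stood at about the same level. The tables of the treatments were normalized separately and carry no test between them, so ratios of IL-4 over PBS are descriptions. The median gene of base mean 100 or more was itself higher with IL-4, by 0.28 (NIK KO) and 0.26 (WT) on the log2 scale over 9148 genes, and each ratio is also given relative to it. In bulk RNA, fewer cells of a type and less RNA per cell cannot be told apart.

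Mrc1 encodes the mannose receptor (CD206), an endocytic receptor for mannose, fucose and N-acetylglucosamine (ENSMUSG00000026712). Its level with IL-4 was 26999 (NIK KO) and 24715 (WT) mean normalized counts, against 1544 (NIK KO) and 1442 (WT) with PBS. The IL-4 level was 17.5-fold (NIK KO) and 17.1-fold (WT) the PBS level, or 14.4-fold and 14.3-fold relative to the median gene. Of 11668 genes with a base mean of 10 or more in both tables, 15 (NIK KO) and 14 (WT) had a larger ratio.

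Mgl2 and Clec10a encode the galactose-type lectins MGL2 and MGL1 (CD301b and CD301a), which bind galactose and N-acetylgalactosamine. Mgl2 (ENSMUSG00000040950) had 904 (NIK KO) and 993 (WT) mean normalized counts with IL-4, against 20.9 (NIK KO) and 16.4 (WT) with PBS. That was 43.3-fold (NIK KO) and 60.6-fold (WT), or 35.7-fold and 50.4-fold relative to the median gene, and 6 (NIK KO) and 1 (WT) of the 11668 genes had a larger ratio. Genes with a base mean under 10 with PBS fell outside this ranking and that of Mrc1. Among them, Retnla stood at 476-fold (NIK KO) and 592-fold (WT), Pdcd1lg2 at 135 and 83.7 and Cdh1 at 114 and 74.6. The PBS level of Mgl2 was itself low, and its log2 fold change between genotypes there had a standard error of 0.88. Clec10a (ENSMUSG00000000318) had 1474 (NIK KO) and 1356 (WT) with IL-4, against 99.8 (NIK KO) and 65.0 (WT) with PBS. Its IL-4 level was 14.8-fold (NIK KO) and 20.9-fold (WT) the PBS level, or 12.2-fold and 17.4-fold relative to the median gene. The genes are close relatives. In GENCODE M21 transcripts, 22.6% of the 31-base words of Mgl2 also occur in Clec10a, and 15.7% of those of Clec10a in Mgl2, so part of their reads could have been assigned to either. Summed, the pair had 2378 (NIK KO) and 2349 (WT) with IL-4, against 121 (NIK KO) and 81.4 (WT) with PBS.

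Clec7a encodes Dectin-1, the receptor for fungal β-glucan (ENSMUSG00000079293). It had 14461 (NIK KO) and 13742 (WT) mean normalized counts with IL-4, against 1317 (NIK KO) and 1529 (WT) with PBS. The IL-4 level was 11-fold (NIK KO) and 8.99-fold (WT) the PBS level, or 9.07-fold and 7.48-fold relative to the median gene. A ratio of at least 8-fold was found for 49 (NIK KO) and 44 (WT) of the 11668 genes, which is 0.420% and 0.377%, and all 4 of these receptor genes were among them in both genotypes.

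**Figure D1:**
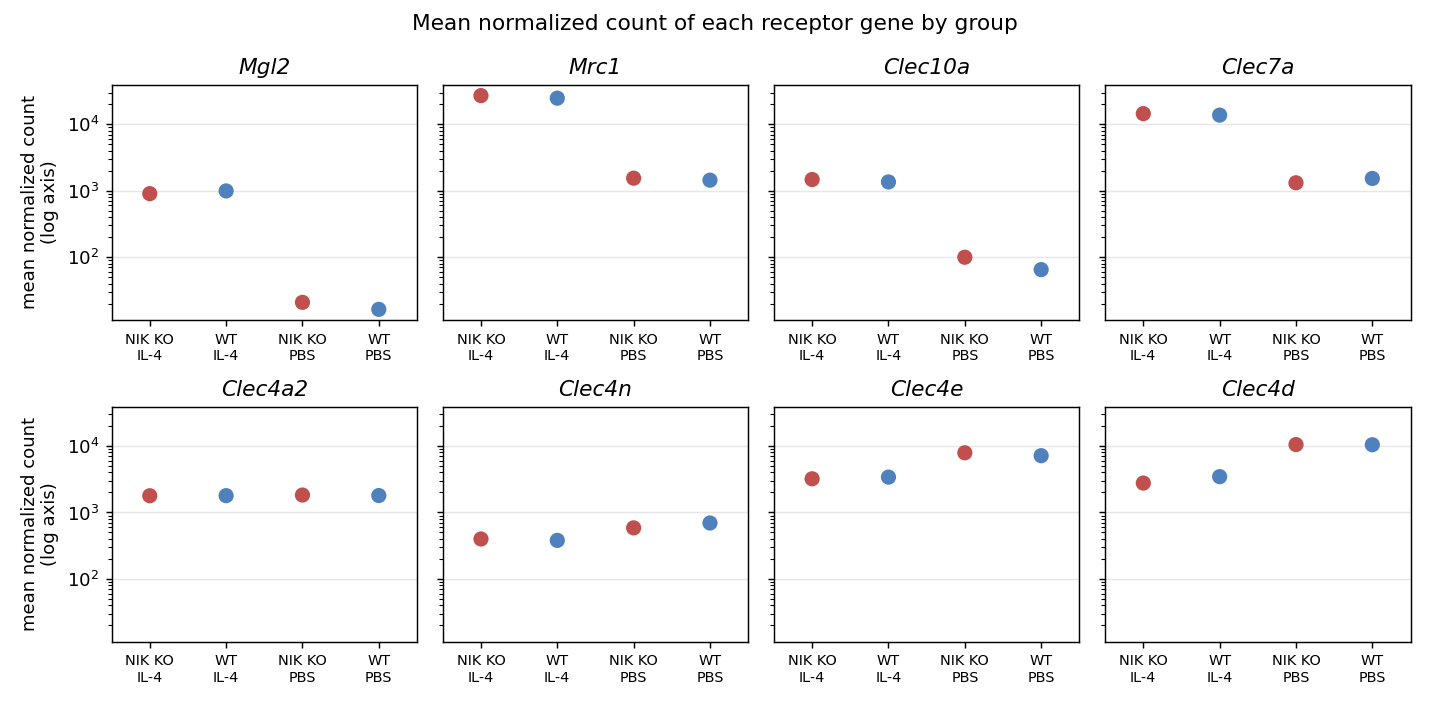
Mean normalized count of each of the 8 receptor genes (log axis) in the libraries labelled NIK KO (red) and in WT libraries (blue), with IL-4 on the left and PBS on the right of each panel; a point is a group mean recovered from a deposited table, with no error bar because no value per library was given. Mgl2, Mrc1, Clec10a and Clec7a stand higher with IL-4 in both genotypes, Clec4a2 lies between 1786 and 1830 in all 4 groups and Clec4n, Clec4e and Clec4d stand lower with IL-4.

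Clec4d, Clec4e and Clec4n encode activating receptors that use the FcRγ chain. Clec4d encodes MCL (Dectin-3), which binds mycobacterial glycolipid (ENSMUSG00000030144). It had 2772 (NIK KO) and 3459 (WT) mean normalized counts with IL-4, against 10523 (NIK KO) and 10458 (WT) with PBS. Its IL-4 level was 0.263 (NIK KO) and 0.331 (WT) of the PBS level, or 0.218 and 0.275 relative to the median gene, and 38 (NIK KO) and 59 (WT) of the 11668 genes had a smaller ratio. Clec4e encodes Mincle, the receptor for trehalose dimycolate of mycobacteria and for products of dying cells (ENSMUSG00000030142). It had 3213 (NIK KO) and 3408 (WT) with IL-4, against 7917 (NIK KO) and 7157 (WT) with PBS, a level of 0.406 (NIK KO) and 0.476 (WT), or 0.335 and 0.396 relative to the median gene. Clec4n encodes Dectin-2, a receptor for α-mannan (ENSMUSG00000023349). It had 399 (NIK KO) and 380 (WT) with IL-4, against 587 (NIK KO) and 694 (WT) with PBS, a level of 0.679 (NIK KO) and 0.547 (WT), or 0.561 and 0.455 relative to the median gene.

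Clec4a2 encodes DCIR, a lectin of the same cluster whose cytoplasmic tail carries an inhibitory motif (ENSMUSG00000030148). It had 1786 (NIK KO) and 1791 (WT) mean normalized counts with IL-4, against 1830 (NIK KO) and 1799 (WT) with PBS. Its ratios of 0.976 (NIK KO) and 0.995 (WT) became 0.806 and 0.828 relative to the median gene. Of its 31-base words 12.4% occur in other genes, and 6.00% in Clec4a4, a gene of the same cluster. In all, 4 of the 8 receptor genes were at least 2-fold higher with IL-4 in both genotypes and 2 of 8 (Clec4d and Clec4e) at least 2-fold lower. Over the 11668 genes these shares were 3.91% and 1.11%. The log2 ratios of Clec4e were -1.30 (NIK KO) and -1.07 (WT). Its fold change between genotypes had a standard error of 1.00 with IL-4 and 0.88 with PBS, so its place among the lower genes is loosely known.

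**Figure D2:**
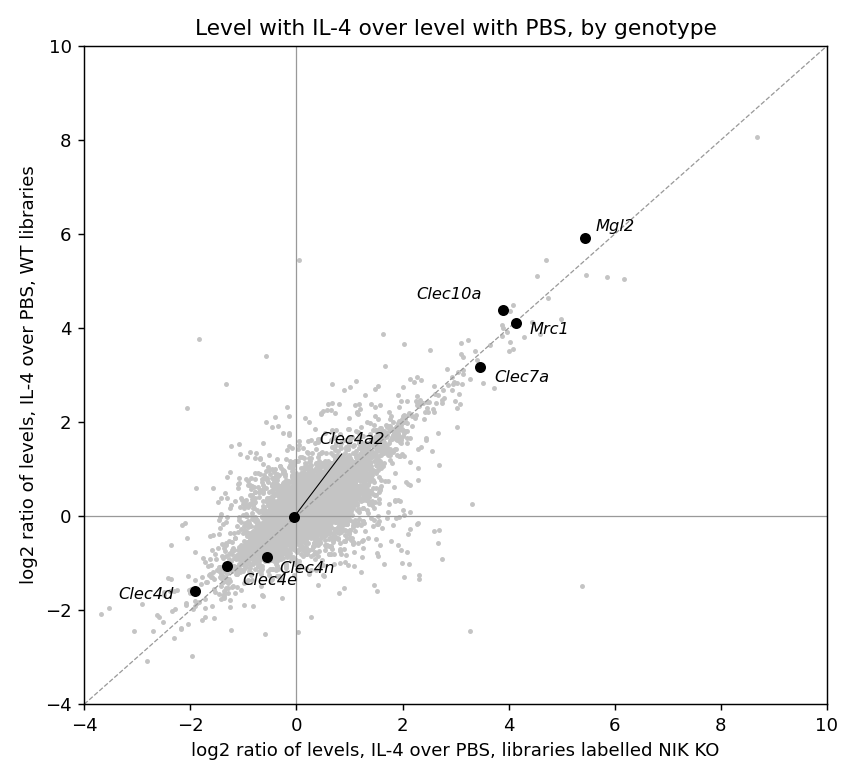
Log2 ratio of the level with IL-4 over the level with PBS in libraries labelled NIK KO (horizontal) and in WT libraries (vertical), for 11668 genes of base mean 10 or more in both tables (grey) and the 8 receptor genes (black); 5 genes lie outside the axes and the dashed line marks equal ratios. Mgl2 lies at 5.44 (NIK KO) and 5.92 (WT), and Clec4d at -1.92 (NIK KO) and -1.60 (WT).

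The order of the receptors differed between treatments on the scale of mean normalized counts per kilobase of the longest GENCODE M21 transcript. This scale sets levels of different genes side by side only as far as that transcript is the one expressed, which was not tested. With IL-4 Clec7a came first at 6351 (NIK KO) and 6035 (WT) per kilobase, then Mrc1 at 5024 (NIK KO) and 4599 (WT), Clec4d at 2095 (NIK KO) and 2615 (WT) and Clec4e at 1276 (NIK KO) and 1353 (WT). Clec4a2, Clec10a, Mgl2 and Clec4n followed between 720 and 325 (NIK KO) and between 722 and 309 (WT) per kilobase. With PBS Clec4d led at 7954 (NIK KO) and 7905 (WT) per kilobase, then Clec4e at 3144 (NIK KO) and 2842 (WT). Clec4a2, Clec7a, Clec4n and Mrc1 lay between 738 and 287 (NIK KO) and between 725 and 268 (WT) per kilobase. Clec10a followed at 42.8 (NIK KO) and 27.9 (WT) per kilobase, and Mgl2 came last in both genotypes. Some neighbours in this order lay no farther apart, as a share of the lower level, than the larger implied spread of the pair, which is given below. That spread is derived from the standard errors and carries the authors' fit across genes. With IL-4 these neighbours were Clec10a and Mgl2, which exchanged places between genotypes (14.3% apart in NIK KO and 4.48% in WT, beside a spread of 16.2%). In NIK KO they were also Clec4d and Clec4e (64.2% apart, beside 69.4%). With PBS they were Clec7a and Clec4n (20.9% apart in NIK KO and 18.8% in WT, beside 23.0%), and in WT also Clec4a2 and Clec7a (8.05% apart, beside 23.0%).

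Position on chromosome 6 did not go with 1 direction. In the Dectin-2 cluster, in gene order, IL-4 over PBS was 1.18 (NIK KO) and 1.27 (WT) for Clec4a1, 2.45 (NIK KO) and 2.65 (WT) for Clec4a3, 0.642 (NIK KO) and 1.67 (WT) for Clec4a4, whose base mean was near 11, 1.67 (NIK KO) and 1.76 (WT) for Clec4b1, and 0.976 (NIK KO) and 0.995 (WT) for Clec4a2. Clec4n, Clec4d and Clec4e, with the lower ratios given above, came at the end of the row. In the Dectin-1 cluster, Clec7a lies next to Olr1, the receptor for oxidized LDL, with no protein-coding gene between them in the RefSeq annotation. Olr1 stood at 8.18 (NIK KO) and 3.70 (WT), while Clec12a, an inhibitory receptor of the cluster, stood at 0.604 (NIK KO) and 0.700 (WT).

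Genotype moved none of the 8 receptor genes past the threshold, with IL-4 or with PBS. The threshold was a deposited adjusted p of 0.05, and a gene below it is said to be called. With IL-4, 0 of 8 were called, where 0.125% of 13642 genes were, and 0 of 8 had an unadjusted p under 0.05, where 2.95% of genes did. With PBS, 0 of 8 were called, where 0.0366% of 13676 genes were, and 0 of 8 had an unadjusted p under 0.05, where 1.24% did. Beside shares this low, a count of 0 says nothing particular about the receptors. DESeq2's Wald test, the only test in the deposited tables, gave every one of the 8 genes an adjusted p of 1.00 in both tables.

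With IL-4, 4 receptor genes lay above 0 and 4 below, from -0.32 to 0.13 on the log2 scale with a median of 0.03, where the median of all genes was -0.01. In the authors' deposited IL-4 table Mrc1 was at 0.13 ± 0.18 (log2 NIK KO over WT ± SE, 2 mice against 2), with a 95% interval of -0.23 to 0.48. Clec7a was at 0.07 ± 0.17 (-0.25 to 0.40) and Clec10a at 0.12 ± 0.19 (-0.26 to 0.50) in the authors' deposited table. Mgl2 was at -0.13 ± 0.24 there, with an interval of -0.60 to 0.33. These intervals leave out a difference of 2-fold in either direction between the genotypes.

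Clec4d had the smallest p with IL-4. The authors' deposited table gives -0.32 ± 0.20 (0.608-fold to 1.06-fold, DESeq2 p = 0.116). Clec4a2 was at 0.00 ± 0.19 (0.773-fold to 1.29-fold) and Clec4n at 0.07 ± 0.33 (0.672-fold to 1.64-fold) in the authors' deposited table. Clec4e was at -0.08 ± 1.00, and its interval ran from 0.242-fold to 3.67-fold, the only one of the 8 with IL-4 that reached past 2-fold.

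With PBS, 6 receptor genes lay above 0 and 2 below, from -0.24 to 0.62 with a median of 0.06, where the median of all genes was -0.01. Clec10a was farthest from 0, at 0.62 ± 0.50 in the authors' deposited table (0.780-fold to 3.02-fold, DESeq2 p = 0.215). Mgl2, whose level with PBS was the lowest of the 8, was at 0.35 ± 0.88 (0.389-fold to 4.19-fold) in the authors' deposited table. Mrc1 was at 0.10 ± 0.27 (0.742-fold to 1.55-fold) and Clec7a at -0.22 ± 0.33 (0.548-fold to 1.36-fold) in the authors' deposited table.

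In the Dectin-2 cluster with PBS, the authors' deposited table puts Clec4d at 0.01 ± 0.26 (0.705-fold to 1.44-fold) and Clec4a2 at 0.02 ± 0.26 (0.714-fold to 1.45-fold). Clec4n was at -0.24 ± 0.28 (0.574-fold to 1.24-fold) and Clec4e at 0.15 ± 0.88 (0.335-fold to 3.65-fold) in the authors' deposited table. Resting levels of Clec10a, Mgl2 and Clec4e were thus known too loosely to leave out a 2-fold difference between genotypes.

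**Figure D3:**
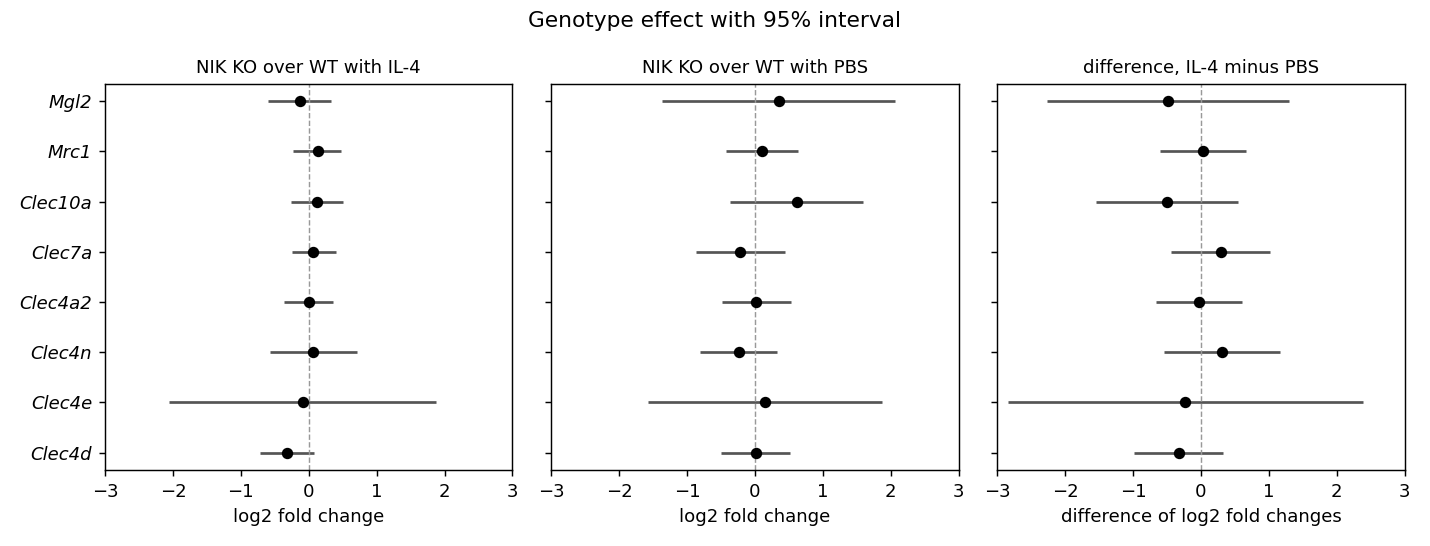
Log2 fold change of NIK KO over WT with IL-4 (left) and with PBS (middle), and the difference between them, IL-4 minus PBS (right), for the 8 receptor genes; points are estimates and lines 95% intervals from the deposited standard errors (2 mice against 2). Every interval crosses 0, and those of Clec4e reach from -2.05 to 1.88 with IL-4 and from -1.58 to 1.87 with PBS.

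The genotype effect was then compared between treatments, which is the same as asking whether the ratio of IL-4 over PBS differed between genotypes. A z test on the deposited fold changes and standard errors called 0 of 8 receptor genes, where it called 0.0149% of 13384 genes, and 0 of 8 had an unadjusted p under 0.05, where 0.867% did. The adjusted p was 1.00 for each of the 8. Differences of IL-4 minus PBS ran from -0.50 ± 0.53 for Clec10a (95% interval -1.54 to 0.55) to 0.31 ± 0.43 for Clec4n (-0.54 to 1.16). Mgl2, with the largest ratios to PBS, was at -0.49 ± 0.91 (-2.26 to 1.29), and Mrc1 was at 0.03 ± 0.33 (-0.61 to 0.67). Clec7a was at 0.29 ± 0.37 (-0.44 to 1.02), Clec4d at -0.33 ± 0.33 (-0.98 to 0.32) and Clec4a2 at -0.03 ± 0.32 (-0.66 to 0.60). Clec4e had the widest interval, at -0.23 ± 1.33 (-2.84 to 2.38). The z test takes the errors of the tables as independent although the mice are shared.

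Clec4e stood apart from the other receptors in its spread. With 2 mice a side and no other term, the deposited standard error together with the means implies a coefficient of variation between mice of a genotype. This coefficient carries the authors' fit across genes, so it is not a direct measure of the spread between these mice. For Clec4e it was 69.4% with IL-4 and 60.9% with PBS. For Mrc1 it was 12.5% with IL-4 and 18.6% with PBS, for Clec7a 11.6% and 23.0%, for Clec4d 14.0% and 18.1%, and for Clec4a2 12.8% and 17.9%. Clec10a had 13.1% with IL-4 and 32.6% with PBS, Mgl2 16.2% and 56.0%, and Clec4n 22.1% and 19.3%. The standard error of Clec4e was 1.00 with IL-4 and 0.88 with PBS, against a median of 0.17 among 837 genes of similar base mean with IL-4 and 0.25 among 260 with PBS (within 0.5 on the log2 scale). Of those, 2 with IL-4 and 1 with PBS had a larger one. The 0.88 of Mgl2 with PBS came with a base mean near 19 and lay near the median of 0.91 of genes at that level.

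**Figure D4:**
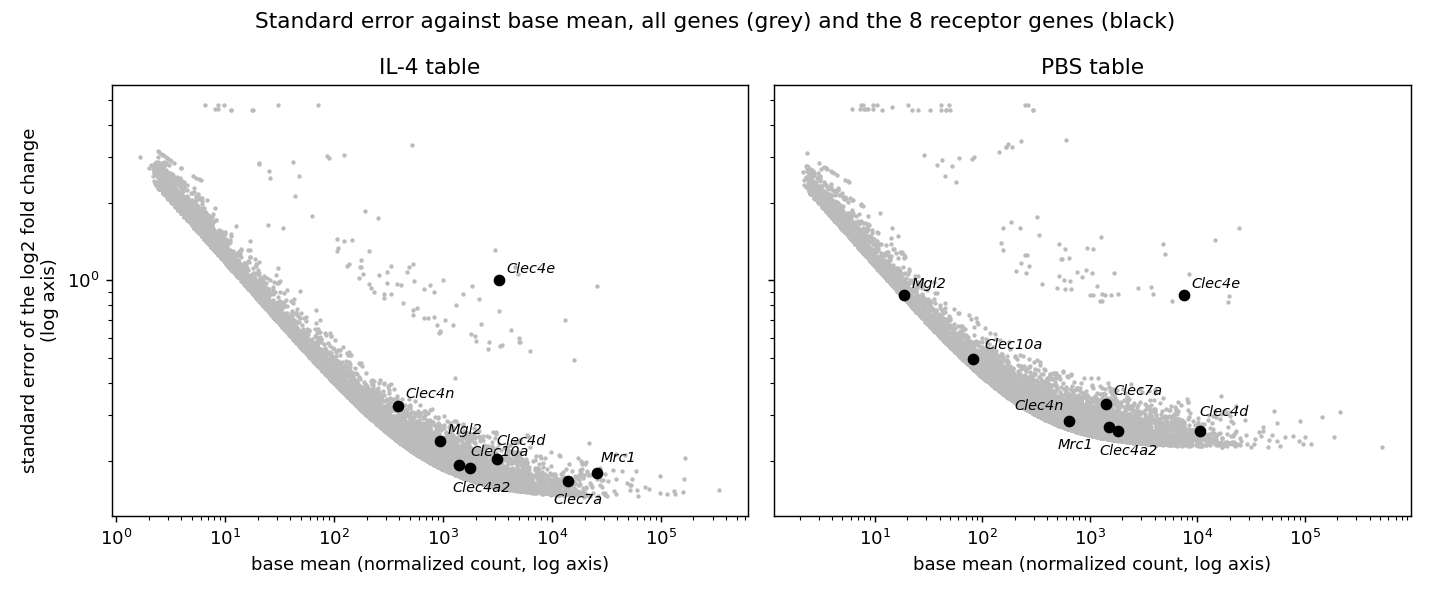
Standard error of the log2 fold change (log axis) against base mean (log axis) for all genes of the IL-4 table (left) and the PBS table (right) in grey, with the 8 receptor genes in black. Clec4e, at 1.00 with IL-4 and 0.88 with PBS, lies in a separate upper cloud of genes in both tables, and the other 7 lie in the main band.

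Of 2847 genes with a base mean of 1000 or more in both tables, 13 (0.457%), Clec4e among them, had a standard error of 0.5 or more in both. These genes were singled out after their values were seen. Cebpb, which encodes a transcription factor that acts on the Mincle gene in macrophages given lipopolysaccharide, was one of them. Its standard errors were 0.58 with IL-4, among the lowest of the 13, and 0.94 with PBS in the authors' deposited tables. Whether Cebpb has a part in the spread of Clec4e was not tested. The others named here are Acod1, the enzyme that makes itaconate (1.13 and 1.06), Gpr84, a receptor for medium-chain fatty acids (1.00 and 1.07), Marco, a scavenger receptor (0.95 and 0.94), and Sod2, mitochondrial superoxide dismutase (0.76 and 0.83), with IL-4 and PBS given in that order. Saa3, an acute phase protein, Marcksl1, Apoe, mt-Atp6, mt-Nd3, Gm28437 and Gm7336 made up the rest. Which mouse stood high or low is not shown by the tables.

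The other C-type lectin genes gave no call by genotype either. Of 40 listed, 23 had a row in each table. With IL-4, 10 had a higher level in NIK KO and 13 a lower one, with a median of -0.02, and with PBS 16 higher and 7 lower, with a median of 0.19, where the median of all genes was -0.01 in both tables. DESeq2 called 0 in either table, where 0.125% of all genes were called with IL-4 and 0.0366% with PBS. An unadjusted p under 0.05 was found for 0, where 2.95% of all genes had one with IL-4 and 1.24% with PBS. Beside these shares a count of 0 says nothing particular about these genes. Clec4a1, a gene of the Dectin-2 cluster, was at 0.30 ± 0.21 with IL-4 and 0.41 ± 0.31 with PBS, and Clec5a, a DAP12-coupled receptor, at -0.30 ± 0.20 and -0.32 ± 0.28 in the authors' deposited tables. Clec2i was at 0.65 ± 0.37 with IL-4 and Olr1 at -1.32 ± 0.86 with PBS in the authors' deposited tables. Clec5a had 1399 (NIK KO) and 1718 (WT) mean normalized counts with IL-4, against 1543 (NIK KO) and 1931 (WT) with PBS, so its levels lay close together between treatments. Between treatments, 18 other lectins had a base mean of 10 or more in both tables. Of these, 2 (Clec4a3 and Olr1) were at least 2-fold higher with IL-4 in both genotypes and 1 (Cd69) at least 2-fold lower. Over all genes under the same filter these shares were 3.91% and 1.11%.

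The 17 genes that carry the signal of the activating lectins had rows in both tables, and DESeq2 called 0 of them, with 0 at an unadjusted p under 0.05. Over all genes these shares were 0.125% and 2.95% with IL-4 and 0.0366% and 1.24% with PBS. Beside them, counts of 0 say nothing particular about the 17. With IL-4, 11 lay above 0 and 6 below (median 0.04), and with PBS 9 higher and 8 lower (median 0.04). With IL-4 the authors' deposited table gives Plcg2, phospholipase Cγ2, at 0.26 ± 0.17, Vav2, a guanine nucleotide exchange factor, at 0.31 ± 0.20 and Fcer1g, the FcRγ chain itself, at -0.20 ± 0.18. With PBS it gives Malt1, the paracaspase of the Card9 complex, at -0.38 ± 0.30, Src at -0.33 ± 0.40 and Vav1 at 0.20 ± 0.24. Between treatments 2 of the 17, Prkcd (protein kinase Cδ) and Vav2, were at least 2-fold higher with IL-4 in both genotypes. Of all genes with a base mean of 10 or more in both tables, 3.91% were. Vav2 had 962 (NIK KO) and 776 (WT) mean normalized counts with IL-4, against 349 (NIK KO) and 308 (WT) with PBS. The phosphatases that inhibitory lectins recruit gave 0 calls of 3 in either table, beside the same low shares of all genes. Ptpn11 was at 0.30 ± 0.17 with IL-4 and 0.26 ± 0.26 with PBS, Inpp5d at 0.31 ± 0.20 and -0.36 ± 0.37, and Ptpn6 at 0.03 ± 0.17 and -0.22 ± 0.26 in the authors' deposited tables.

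The IL-4 pathway and its usual targets were listed as a check of the treatment. Of 19 with a base mean of 10 or more in both tables, 11 were at least 2-fold higher with IL-4 in both genotypes, against 3.91% of all genes under the same filter. Arg1, arginase 1, had 7136 (NIK KO) and 8190 (WT) mean normalized counts with IL-4, against 17.3 (NIK KO) and 30.5 (WT) with PBS. By genotype, 14 of 24 lay above 0 and 10 below with IL-4 (median 0.03), and 8 of 23 above and 15 below with PBS (median -0.12). DESeq2 called 0 in either table, where 0.125% of all genes were called with IL-4 and 0.0366% with PBS. Chil3, a chitinase-like protein, was the 1 gene with an unadjusted p under 0.05 (-0.43 ± 0.18 with IL-4 in the authors' deposited table, DESeq2 p = 0.0139). Of all genes, 2.95% had such a p with IL-4 and 1.24% with PBS. Il4ra, the receptor chain that binds IL-4, was at 0.29 ± 0.17 with IL-4 and 0.09 ± 0.24 with PBS, and Pparg at 0.16 ± 0.26 and 0.31 ± 0.35 in the authors' deposited tables. Jak1, a kinase of the IL-4 receptor, was at 0.24 ± 0.16 with IL-4, and Ccl22, a chemokine, at -0.85 ± 0.58 with PBS in the authors' deposited tables.

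Over the 4 group means, among 9148 genes of base mean 100 or more in both tables, the genes nearest to Mrc1 by Euclidean distance of centred log2 levels were Slc30a4 (0.20), Egr2 (0.30) and Tbc1d16 (0.41). Those nearest to Mgl2 were Flt1 (0.65), Slc7a2 (0.98) and Mrc1 (1.51), and those nearest to Clec4e were Cav1 (0.09), Bhlhe41 (0.09) and Cgnl1 (0.10). Cav1 had 804 (NIK KO) and 808 (WT) mean normalized counts with IL-4, against 2050 (NIK KO) and 1772 (WT) with PBS. With 4 points from tables normalized separately, this likeness describes levels only.

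Several of the receptors are also made by dendritic cells and monocytes. Of 10 dendritic cell markers 9 had rows in each table, summing to 2306 (NIK KO) and 2457 (WT) mean normalized counts with IL-4, against 394 (NIK KO) and 402 (WT) with PBS. Most of the sum was Itgax and Batf3. Of the 4 markers with a base mean of 10 or more in both tables, 3 (Itgax, Batf3 and Kmo) were at least 2-fold higher with IL-4 in both genotypes. Of all genes under the same filter, 3.91% were. Flt3, which marks dendritic cells and their precursors, had 16.6 (NIK KO) and 10.4 (WT) with IL-4, against 7.83 (NIK KO) and 10.6 (WT) with PBS. Zbtb46, also on the list, had 43.7 (NIK KO) and 39.3 (WT) with IL-4, against 6.78 (NIK KO) and 6.54 (WT) with PBS. Both genes had a base mean under 10 with PBS. The 6 monocyte markers summed to 1459 (NIK KO) and 969 (WT) with IL-4 and to 1837 (NIK KO) and 1164 (WT) with PBS. Most of each sum was Ccr2 (0.66 ± 0.24 with IL-4, 0.74 ± 0.36 with PBS in the authors' deposited tables, not called). Of the 6, 3 lay above 0 with IL-4 and 3 below (median -0.11), and 5 above and 1 below with PBS (median 0.90). Under the filter of base mean 10 or more in both tables, 2 of 5 monocyte markers (Ly6c2 and Treml4) were at least 2-fold lower with IL-4 in both genotypes. So were 2 of 12 macrophage markers (Fcgr1 and Cd14), and 1.11% of all genes. With IL-4, fibroblast markers summed to 141 (NIK KO) and 413 (WT), with Col3a1 lower and called (-2.34 ± 0.53 and adjusted p = 0.0107 from DESeq2 in the authors' deposited table), and erythroid markers to 154 (NIK KO) and 341 (WT). With PBS, fibroblast markers summed to 99.2 (NIK KO) and 116 (WT) and erythroid markers to 103 (NIK KO) and 96.1 (WT). With IL-4, 1 of 7 fibroblast markers and 0 of 5 erythroid markers were called, where 0.125% of all genes were. An unadjusted DESeq2 p under 0.05 was found with IL-4 for 4 of the 7 and 4 of the 5, where 2.95% of all genes had one. With PBS 0 of the fibroblast and erythroid markers were called, where 0.0366% of all genes were, and 0 had an unadjusted p under 0.05, where 1.24% did. Neutrophil markers summed to 2731 (NIK KO) and 2103 (WT) with IL-4, most of it Csf3r. With PBS they summed to 835 (NIK KO) and 791 (WT). By gene, 2 of the 5 neutrophil markers with a row lay above 0 with IL-4 and 3 below (median -0.26). One of the lower ones, S100a8, had 76.2 (NIK KO) and 133 (WT) mean normalized counts with IL-4 and was not called. The sums of mast cell and basophil, B cell, and T and NK cell markers were 50.2 or less in every group. Among macrophage markers, Adgre1 was at 0.54 ± 0.18 with IL-4 in the authors' deposited table, with an unadjusted p of 0.0032 and no call. The part of these cells in the receptor levels was not tested.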

How the data were processed

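RNA sequencing of 8 macrophage libraries reached the analysis as 2 tables of per-gene results. The submitters' processing notes name DESeq2 1.32.0, Salmon 1.4.0 and GRCm39 without roles, annotation or filters. For each gene the authors deposited, by column name, a signal (the base mean, counts divided by size factors and averaged over the 4 libraries), the log2 fold change with its error, the Wald statistic (a score), and the p-value and adjusted p-value. The statistic equalled fold change over standard error to within 1.4e-07. The name of the IL-4 table gave the direction, applied to both. With IL-4, 551 genes lack an adjusted p and stayed so.

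Group means, 95% intervals (1.96 standard errors), implied coefficients of variation, ratios of IL-4 over PBS and the z test (Benjamini-Hochberg over 13384 genes) were computed with scipy 1.17.1, pandas 2.3.3 and numpy 2.4.6 under Python 3.11.15, drawn with matplotlib 3.10.9, and tested on simulated data. The coefficients of variation carry the authors' fit across genes. Recovered means assume 2 libraries a side of equal weight. Nothing says how cultures were split, so errors measure these mice only. The filter for list ratios of IL-4 over PBS (base mean of 10 or more in both tables, as for all genes) and the comparison of neighbouring levels were set after the values were seen. Members and lists were chosen with earlier results of these data known. The text names the 8 receptors, Map3k14, called genes and the 3 largest statistics of each list (for markers 2, some given only in their list's sum), and nearest neighbours of 3 receptors. Genes named for a sum, a ratio or a place in a cluster, and Flt3 and Zbtb46, fall outside this rule. Depth is unknown, so the standard error sets the precision (median 0.22 with IL-4 and 0.30 with PBS at base mean 100 or more).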

Additional observations from a re-analysis of the deposited data

How the results depend on the processing

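Leaving out a mouse could not be done, since the tables hold 1 value per gene. Each mouse gave a library with IL-4 and one with PBS, but no paired analysis was possible because the tables hold no values per library. For the 8 receptor genes, 116 fold changes and differences were set against the threshold under the alternatives, and each kept its side (smallest adjusted p 1.00). That says little, since the receptors lay far from the threshold to begin with. Their largest absolute Wald statistic was 1.57 with IL-4 (Clec4d) and 1.24 with PBS (Clec10a), where the smallest called ones were 4.06 and 4.46. A t distribution with 2 degrees of freedom left 0 called genes with PBS and 0 with IL-4, among them Map3k14 and Col3a1, because its wide tails let no statistic pass. Restricting to base mean 100 or more left 9 called with IL-4 and 0 for the difference between treatments, and fewer genes were then tested. An error correlation of 0.5 between tables gave 20 calls in the difference, against 2 without it, and the receptors stayed at 0. Dividing each table by its summed base means, or setting the median ratio to 1, kept 4 receptors at least 2-fold higher and 2 at least 2-fold lower with IL-4. A call would have needed about 1.66-fold for Mrc1 with IL-4 and 2.31-fold with PBS, but 16.7-fold and 15.1-fold for Clec4e.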
